A study of Mus musculus with 8 samples.

Results

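The genes described here are the splicing factors of 3 named groups: the SRSF proteins, the HNRNP proteins and the subunits of SF3A and SF3B. Members were all genes whose single symbol in the platform annotation starts with Srsf and a digit, with Hnrnp, or with Sf3a or Sf3b. There were 38 members among 18193 named genes: 10 SRSF, 19 HNRNP, 3 SF3A and 6 SF3B genes. The rule uses symbols and no measured value, though it was chosen with earlier results of these data known. Each gene was read through its brightest probe set, the one with the highest mean log2 intensity over the 8 arrays. Of the 38, 36 were bright enough to test, and the other 2, Srsf12 and Hnrnpll, were too dim.

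RNA came from germinal centre B cells of C57BL/6 mouse lymph nodes, taken 12 days after subcutaneous immunization with the hapten-carrier conjugate NP-KLH in alum. The sorted B cells (B220+CD38-CD95+) were split into light zone cells and dark zone cells, with 4 Affymetrix arrays for each and 1 sorted sample on each array. All samples share strain, tissue, immunization and harvest day, and no other genotype or treatment is named in the labels. The labels call the samples biological replicates but do not say whether each came from 1 mouse or from pooled animals, so p-values measure the spread between these samples. The number of arrays limits the precision.

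The labels give the light zone as CXCR4hi/CD83lo and the dark zone as CXCR4lo/CD83hi, the reverse of the usual definition. Groups follow the sample titles, and the mRNA went with the titles and against the gate wording: the log2 difference, dark zone minus light zone, was -2.32 for Cd83 and 0.96 for Cxcr4. Of the B cell markers, 5 of 5 on the array were above the filter. Of 7 T cell markers 4 were below the filter (Cd3d, Cd3g, Cd8a and Cd5), and of 10 myeloid markers 5 were. Of the T cell markers above the filter only Lat (-0.52) was called, higher in the light zone. The summed intensity of the T cell markers lay between 237.4 and 254.7 in light zone arrays and between 212.6 and 226.0 in dark zone arrays. That of the myeloid markers lay between 416.2 and 509.6 in light zone arrays and between 457.9 and 1266 in dark zone arrays. Among them, Lyz2 (2.98, log2 means 5.62 and 8.60) and Csf1r (0.40) were called higher in the dark zone and Cd68 (-0.40) in the light zone. The stromal and follicular dendritic cell markers (3 of 6 below the filter: Pdgfrb, Col1a1 and Col3a1) summed to between 1957 and 2260 in light zone arrays and between 963.5 and 1256 in dark zone arrays. Most of that sum was Cr2 (log2 means 10.95 and 9.97), which B cells also express, and Cxcl13 (-0.10) and Pecam1 (-0.26) were not called. The plasma cell markers summed to between 10751 and 12069 in light zone arrays and between 11722 and 12263 in dark zone arrays. Irf4 (-2.03) and Prdm1 (-1.37) were called higher in the light zone and Jchain (0.15) in the dark zone. Markers of the G2 and M phases of the cell cycle moved with the zone: 11 of 11 were higher in the dark zone, with summed intensities of 16050 to 17246 against 28527 to 31476. In sorted bulk samples a different mix of cells and a different amount of RNA per cell cannot be told apart, and the part that these markers have in the splicing factor differences was not tested.

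Pre-mRNA splicing removes introns and joins exons, and the choice of splice sites lets 1 gene make several mRNAs. SRSF proteins carry RNA recognition motifs and a tail rich in arginine and serine; they bind exonic enhancers and recruit the splicing machinery. HNRNP proteins are a diverse set that coats nascent RNA and often opposes exon inclusion, and SF3A and SF3B are parts of the U2 small nuclear ribonucleoprotein (snRNP), which recognizes the intron branch site. Many splicing factors hold their own level by making, through alternative splicing, transcripts that are degraded by nonsense-mediated decay. In B cells, splicing also sets the balance of membrane and secreted immunoglobulin and of CD45 isoforms.

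The promoters of the called members with the largest zone differences are shown first, because the rest of the text turns on these genes. RefSeq start site windows (GRCm38.p6) matched 34 of the 38 members, and Hnrnpll, Hnrnpul2, Sf3b4 and Sf3b5 were not matched. Of the called members that matched, the 2 with the largest difference in each direction are printed as the 250 bases before the transcription start, on the gene's strand. Capitals mark every match, on either strand, to 4 motifs: the E-box CACGTG, the CCAAT box CCAAT, the cell cycle element called CHR (TTTGAA) and the ETS core CCGGAA. No matches overlapped in these 4 windows. Srsf10 and Hnrnpa1 were higher in the light zone, and Hnrnpm and Srsf5 in the dark zone. The windows are chr4:135855821-135856070 (plus strand) for Srsf10, chr15:103240147-103240396 (plus strand) for Hnrnpa1, chr17:33685459-33685708 (minus strand) for Hnrnpm and chr12:80945249-80945498 (plus strand) for Srsf5.
Srsf10: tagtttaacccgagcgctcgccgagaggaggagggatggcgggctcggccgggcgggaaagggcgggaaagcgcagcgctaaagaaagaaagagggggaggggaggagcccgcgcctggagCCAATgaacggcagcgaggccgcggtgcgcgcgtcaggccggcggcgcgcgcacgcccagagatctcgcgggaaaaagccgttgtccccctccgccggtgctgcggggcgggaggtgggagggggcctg
Hnrnpa1: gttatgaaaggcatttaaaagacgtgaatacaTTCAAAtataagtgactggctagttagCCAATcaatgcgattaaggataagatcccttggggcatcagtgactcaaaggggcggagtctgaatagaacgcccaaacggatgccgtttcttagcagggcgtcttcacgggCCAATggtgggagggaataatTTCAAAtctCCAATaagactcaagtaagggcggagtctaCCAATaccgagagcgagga
Hnrnpm: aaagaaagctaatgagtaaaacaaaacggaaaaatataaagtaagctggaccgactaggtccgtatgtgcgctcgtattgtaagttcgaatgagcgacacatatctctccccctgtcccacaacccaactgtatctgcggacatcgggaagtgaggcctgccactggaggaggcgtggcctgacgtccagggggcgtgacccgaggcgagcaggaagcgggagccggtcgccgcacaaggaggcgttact
Srsf5: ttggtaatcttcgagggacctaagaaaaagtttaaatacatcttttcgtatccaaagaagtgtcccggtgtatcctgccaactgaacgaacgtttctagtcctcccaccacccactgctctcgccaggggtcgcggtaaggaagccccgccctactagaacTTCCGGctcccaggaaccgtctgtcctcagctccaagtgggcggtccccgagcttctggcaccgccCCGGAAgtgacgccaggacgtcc

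The Hnrnpa1 window held 4 CCAAT boxes and 2 CHR matches, the Srsf10 window 1 CCAAT box, the Srsf5 window 2 ETS cores, and the Hnrnpm window none of the 4 motifs. Over the 34 members with a window, 16 (47.06%) held an ETS core, 17 (50%) a CCAAT box, 5 (14.71%) a CHR and 2 (5.882%) an E-box. Among all 27025 genes with a window the shares were 13.59%, 37.49%, 18.26% and 6.86%, and among the 8572 tested genes with one they were 26.7%, 40.52%, 12.49% and 10.2%. A CCAAT box was found in 4 of the 5 members higher in the light zone and in 1 of the 4 members higher in the dark zone. It was found in 12 of the 24 members not called (50%). For the ETS core these counts were 1 of 5, 2 of 4 and 13 of 24, and no such split was tested. These are matches of letters in a short window and say nothing of a factor's binding.

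Read through the brightest probe set, most splicing factors differed little between the zones, and those that did were split evenly in direction. At a limma adjusted p under 0.05, with Benjamini-Hochberg adjustment over 10547 tested genes, 5 of the 36 tested members were up in dark zone cells and 5 in light zone cells. Of all tested genes, 19.1% were called up in dark zone cells and 24.8% in light zone cells, 43.9% in all, against 10 of 36 members (27.8%). The 5 higher in the dark zone were Hnrnpm, Hnrnpul2, Srsf5, Sf3a3 and Hnrnpk. The 5 higher in the light zone were Srsf10, Hnrnpa1, Hnrnpr, Srsf6 and Sf3b3.

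The sizes were small. Over the 36 members the median difference was -0.01, against -0.01 for all tested genes, and the median size without sign was 0.13 against 0.17. In these brightest probe sets differences ran from -0.48 to 0.44, and none reached 1.5-fold, which 1062 of all tested genes did. Dimmer probe sets of some members went beyond 1.5-fold, among them those at 2.68 for Hnrnpab, 0.77 for Srsf1, 0.60 for Sf3b2 and -0.59 for Hnrnpa1. For 33 of the 36 (91.7%) the whole 95% confidence interval lay within 1.5-fold in either direction, as it did for 81.0% of all tested genes. The exceptions were Srsf10, Hnrnpa1 and Hnrnpm. The arrays of the zones did not overlap in 17 members, where 41.3% of all tested genes had no overlap. The counts moved with the processing: 10 members were up in dark zone cells and 4 in light zone cells when the probe sets of a gene were averaged, and 9 and 8 with a variance model that follows the expression level (trend and robust settings of limma).

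**Figure D1:**
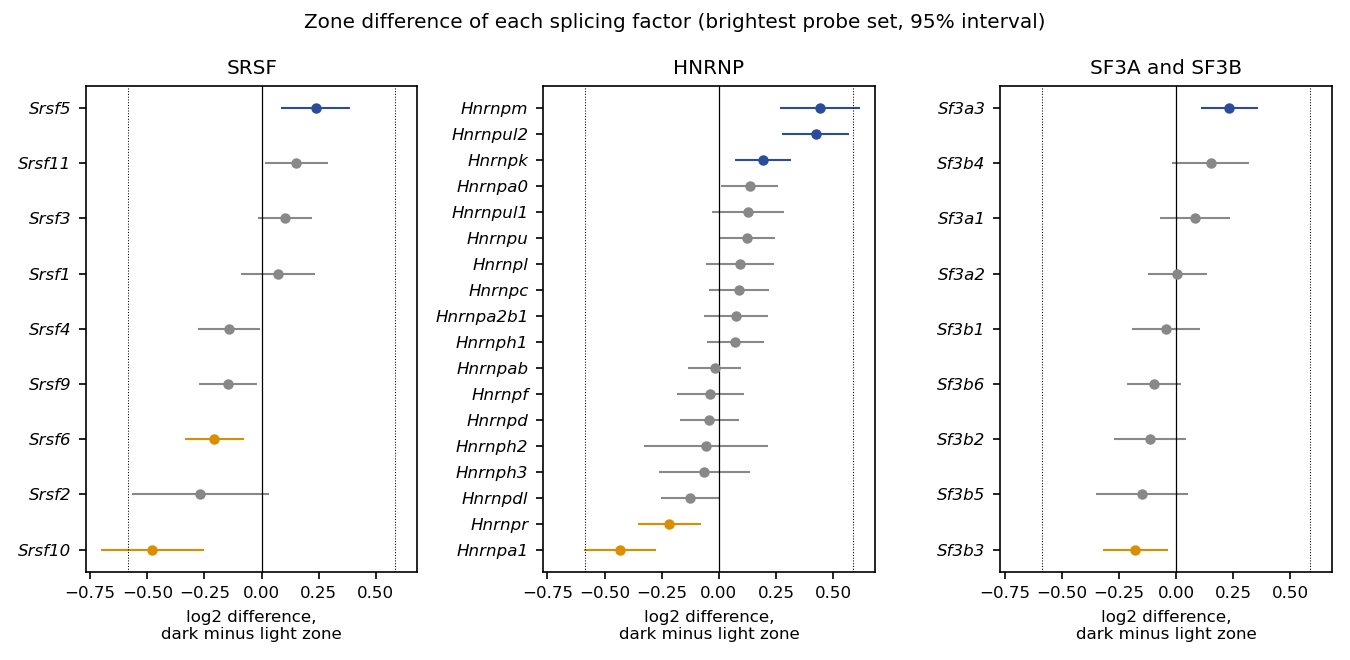
Zone difference of the 36 tested splicing factors. The x axis is the log2 difference, dark zone minus light zone, with its 95% interval, in panels for SRSF, HNRNP and SF3 genes; blue marks genes called higher in the dark zone, orange the light zone, grey not called, and dotted lines mark 1.5-fold. No point lies beyond a dotted line, and only the intervals of Srsf10, Hnrnpa1 and Hnrnpm cross one.

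Among SRSF genes, 1 of 9 tested was up in dark zone cells, 2 were up in light zone cells and 6 did not pass. Srsf10 encodes an SR protein that, unlike most others, acts as a repressor when dephosphorylated, as in mitosis or heat shock. Its log2 intensities were 9.82, 10.28, 9.98 and 10.02 in light zone replicates 1 to 4 and 9.37, 9.62, 9.73 and 9.47 in dark zone replicates 1 to 4. Every light zone array was above every dark zone array, and light zone replicate 2 was the highest. The difference was -0.48 (standard error, SE, 0.10; limma adjusted p = 0.0026), or 1.39-fold higher in the light zone. It rests on 1 of 4 probe sets: the other 3 gave 0.01, 0.18 and 0.22, none called, and the mean over all 4 was -0.02.

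Srsf6 encodes an SR protein that binds exonic enhancers. Its brightest probe set read 11.76, 11.87, 11.69 and 11.74 in light zone arrays and 11.58, 11.56, 11.53 and 11.55 in dark zone arrays. The zones did not overlap, and the dark zone arrays lay close together. The difference was -0.21 (SE 0.06, limma adjusted p = 0.013), but the mean over its 4 probe sets was 0.13 and did not pass.

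Srsf5 encodes an SR protein and has a single probe set here. It read 11.61, 11.42, 11.57 and 11.44 in light zone arrays and 11.81, 11.82, 11.71 and 11.63 in dark zone arrays. All dark zone arrays were above all light zone arrays, though the lowest dark zone array (replicate 4) was close to the highest light zone array (replicate 1). The difference was 0.24 (SE 0.07, limma adjusted p = 0.015), or 1.18-fold.

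The other 6 SRSF genes did not pass. Srsf4 and Srsf9, both exon enhancer binding SR proteins, were at -0.14 and -0.15, and Srsf3, the smallest SR protein, and Srsf11 were at 0.10 and 0.15. In each of these 4 the arrays of the zones did not overlap, and the limma adjusted p lay between 0.060 for Srsf9 and 0.15 for Srsf3. Srsf1, the founding SR protein, was at 0.07 with a 95% interval from -0.09 to 0.23. Srsf2 binds exonic enhancers and also acts in transcription elongation. Its light zone arrays spread more than those of any other member, at 11.87, 12.70, 12.09 and 12.20, against 11.98, 11.98, 11.97 and 11.86 in the dark zone. The zones overlapped, light zone replicate 2 was far above the rest, and the difference of -0.27 (SE 0.14, limma adjusted p = 0.14) was -0.11 without that array. Without light zone replicate 1 it was -0.38 and passed (limma adjusted p = 0.030), and averaged probe sets gave about no difference.

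Among HNRNP genes, 3 of 18 tested were up in dark zone cells, 2 were up in light zone cells and 13 did not pass. Hnrnpa1 encodes an abundant shuttling protein that antagonizes SR proteins in 5′ splice site choice. It read 11.56, 11.83, 11.80 and 11.63 in light zone arrays and 11.28, 11.33, 11.21 and 11.27 in dark zone arrays. The lowest light zone array was above the highest dark zone array. The difference was -0.43 (SE 0.07, limma adjusted p = 4.3e-04), or 1.35-fold higher in the light zone, and a second bright probe set gave -0.59. Both probe sets are of types that can detect more than 1 transcript, and Hnrnpa1 has processed pseudogenes, so signal of near-identical copies cannot be separated from it.

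Hnrnpr encodes an RNA binding protein close in sequence to Syncrip. Its brightest probe set read 11.78, 11.94, 11.81 and 11.81 in light zone arrays and 11.52, 11.67, 11.69 and 11.60 in dark zone arrays. The zones did not overlap, and the difference was -0.22 (SE 0.06, limma adjusted p = 0.016). It did not pass with averaged probe sets, and the brightest probe set free of a suffix gave the other sign (0.092, not called).

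Hnrnpm, whose protein binds GU-rich RNA, showed the largest rise in the dark zone among the brightest probe sets of the members. It read 10.12, 10.08, 10.25 and 9.98 in light zone arrays and 10.73, 10.49, 10.53 and 10.44 in dark zone arrays. No dark zone array was as low as any light zone array, and replicate 1 was the highest of the dark zone. The difference was 0.44 (SE 0.08, limma adjusted p = 8.3e-04), or 1.36-fold.

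Hnrnpul2 encodes a relative of the scaffold attachment protein HNRNPU that also has a role in DNA end resection. It read 9.48, 9.28, 9.41 and 9.39 in light zone arrays and 9.93, 9.74, 9.76 and 9.83 in dark zone arrays. The zones were well apart, with a difference of 0.42 (SE 0.07, limma adjusted p = 2.9e-04), or 1.34-fold, and a dimmer probe set gave 0.35. Hnrnpm and Hnrnpul2 kept their call under all 19 alternatives tried. Hnrnpm has a single probe set here, so the alternatives that change the probe set could not move its difference. For Hnrnpul2 the brightest probe set is already free of a suffix.

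Hnrnpk encodes a KH domain protein that binds C-rich sequences. It read 12.84, 12.70, 12.82 and 12.78 in light zone arrays and 13.02, 12.96, 12.98 and 12.94 in dark zone arrays. The zones did not overlap and the difference was 0.19 (SE 0.06, limma adjusted p = 0.016). The other 3 probe sets gave 0.10, -0.01 and -0.07, none called, and the averaged value of 0.05 did not pass.

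The 13 HNRNP genes that did not pass lay between -0.13 for Hnrnpdl and 0.14 for Hnrnpa0. Hnrnpc, which binds uridine tracts and guards against the use of cryptic exons, was at 0.09 with a 95% interval from -0.04 to 0.22. Hnrnpl, a binder of CA repeats that regulates CD45 exons, was at 0.09 with an interval from -0.05 to 0.24. Hnrnpa2b1, Hnrnph1, Hnrnpul1 and Hnrnpu were at 0.08, 0.07, 0.13 and 0.12. Hnrnpd (AUF1, also a regulator of AU-rich mRNA decay) and Hnrnpf were both at -0.04, and Hnrnpab was at -0.02. Hnrnph2 and Hnrnph3, relatives that bind G-rich sequences, were both at -0.06, and each turned positive without light zone replicate 2 (0.07 and 0.02).

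The 2 dim members had no test. Hnrnpll, known for repressing the CD45 variable exons in activated lymphocytes and plasma cells, read 4.02, 4.18, 4.07 and 3.88 in light zone arrays and 4.00, 4.12, 3.90 and 4.22 in dark zone arrays. Srsf12, a relative of Srsf10, read 3.17, 3.06, 3.14 and 3.10 in light zone arrays and 3.03, 3.01, 3.07 and 3.08 in dark zone arrays. Both were below the filter of 4.80 on the log2 scale on every array, and the zones overlapped.

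**Figure D2:**
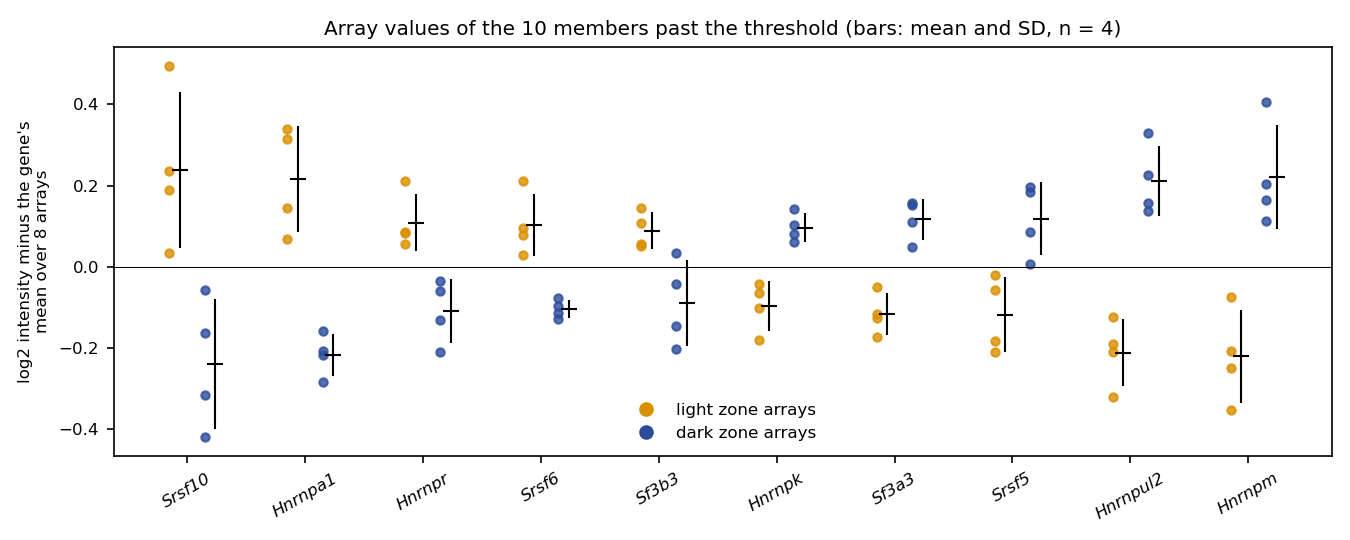
Array values of the 10 called members. The y axis is log2 intensity minus the gene's own mean over 8 arrays; orange points are the 4 light zone arrays, blue points the 4 dark zone arrays, and bars give mean and SD (n = 4). The zones do not overlap in any of the 10, and the gap is narrowest for Sf3b3, where dark zone replicate 1 (9.22) lies just under the lowest light zone array (9.23).

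In the SF3A trimer, 1 of 3 subunit genes was higher in the dark zone and 2 did not pass. Sf3a3 encodes a subunit that bridges SF3A to the U2 snRNP. It read 10.26, 10.14, 10.19 and 10.20 in light zone arrays and 10.42, 10.47, 10.47 and 10.36 in dark zone arrays. The zones did not overlap, and the difference was 0.23 (SE 0.06, limma adjusted p = 0.0059), or 1.18-fold. A dimmer probe set gave 0.51, and the call held under all 19 alternatives. Sf3a1, which contacts U1 and U2 RNA, was at 0.08 (95% interval -0.07 to 0.24), and Sf3a2 was at 0.01 (-0.12 to 0.13). For Sf3a1, 2 dimmer probe sets were called higher in the dark zone (0.44 and 0.24), and the averaged value of 0.19 passed.

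In SF3B, 1 of 6 subunit genes was higher in the light zone and 5 did not pass. Sf3b3 encodes the large scaffold subunit next to SF3B1. It read 9.24, 9.29, 9.33 and 9.23 in light zone arrays and 9.22, 8.98, 9.14 and 9.04 in dark zone arrays. The zones touched without overlap, and the difference was -0.18 (SE 0.07, limma adjusted p = 0.044). The call was lost on leaving out any 1 array other than dark zone replicate 1, with limma adjusted p up to 0.13, and with a looser filter on dim probe sets or none (0.061 and 0.066). A dimmer probe set gave -0.33.

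Sf3b1, the branch site clamp that is recurrently mutated in leukaemia, read 12.02, 11.78, 11.96 and 11.83 in light zone arrays and 11.93, 11.82, 11.85 and 11.80 in dark zone arrays. The zones overlapped, and the difference of -0.05 had a 95% interval from -0.19 to 0.10. Sf3b2, Sf3b5 and Sf3b6 were at -0.11, -0.15 and -0.10, and Sf3b4 at 0.15, with limma adjusted p between 0.14 and 0.23. Phf5a, the small SF3B subunit with another kind of symbol, was on a separate list and was higher in the dark zone by 0.20.

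Probe sets of the same gene often gave different answers. The members have 121 probe sets with a single symbol, of which 109 were bright enough to test. In a limma fit over all 22519 probe sets above the filter, 24 of the 109 were called up in dark zone cells and 13 in light zone cells, 33.9% in all against 40.8% over all those probe sets. In the 27 members with more than 1 tested probe set, the brightest was called up in dark zone cells in 3 (11.1%) and up in light zone cells in 4 (14.8%). Of the other 73 probe sets of these 27 genes, 19 (26.0%) were called up in dark zone cells and 9 (12.3%) in light zone cells. Over all 4800 genes with several tested probe sets, the shares were 21.3% and 24.6% for the brightest and 23.8% and 18.3% for the others, so dark zone calls outnumbered light zone calls among the other probe sets there too.

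In 3 of the 27 members (11.1%), Hnrnpab, Hnrnpr and Srsf6, probe sets were called in both directions, as in 189 of the 4800 genes (3.94%). Hnrnpab encodes an RNA binding protein of the AUF1 family. Its brightest probe set (1415914_at) read 12.81, 12.76, 12.77 and 12.77 in light zone arrays and 12.78, 12.75, 12.75 and 12.76 in dark zone arrays, so the zones were level. The probe set 1426114_at read 9.09, 8.88, 9.39 and 8.97 in light zone arrays and 11.71, 11.51, 11.78 and 12.06 in dark zone arrays. The zones were far apart there, by 2.68 (SE 0.13, limma adjusted p = 4.4e-08), which ranks 18 by size among the 22519 probe sets. Another, 1455855_x_at, was at -0.21 (12.76, 12.88, 12.85 and 12.99 against 12.61, 12.64, 12.70 and 12.72), and 1459880_at was at 0.31. The other 3 gave 0.12, 0.20 and 0.03 and were not called. Of the genes next to Hnrnpab in the reference order, Nhp2 was at -0.70, Phykpl at -0.24, Clk4 at 0.05, Rmnd5b at 0.07 and N4bp3 at 0.45, and Col23a1 was below the filter. Which transcript 1426114_at detects was not tested.

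For Srsf6, the probe set 1416720_at read 9.55, 9.54, 9.55 and 9.38 in light zone arrays and 9.82, 10.06, 9.93 and 9.80 in dark zone arrays. It was higher in the dark zone by 0.40 (SE 0.08, limma adjusted p = 0.0015), opposite to the brightest probe set, and 1416721_s_at was higher by 0.22. For Hnrnpr, 1452030_a_at read 8.68, 8.58, 8.61 and 8.49 in light zone arrays and 8.92, 9.37, 9.18 and 8.86 in dark zone arrays. It was higher there by 0.49 (SE 0.11, limma adjusted p = 0.0031). A second bright probe set of Hnrnpr, 1437526_x_at, was at -0.33, on the side of the brightest. Transcripts of different ends, isoforms or related genes can each be read by 1 probe set, and the arrays do not separate these.

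In 10 of the 27 members the brightest probe set was not called in the gene fit, while another was called in the fit over all probe sets. These were Hnrnpab, Hnrnpdl, Hnrnpf, Hnrnph1, Hnrnpu, Sf3a1, Sf3b1, Sf3b2, Sf3b5 and Srsf1. In the fit over all probe sets Sf3b3 joined them. Its brightest probe set was not called there (limma adjusted p = 0.056), and its dimmer one was called higher in the light zone (-0.33). The share of such genes among all 4800 with several tested probe sets was not counted. For Srsf1 the 6 tested probe sets ran from -0.25 to 0.77, and 3 were called higher in the dark zone. For Sf3b2 they ran from -0.11 to 0.60, with 3 of 7 called higher in the dark zone. Hnrnpf had 2 of 4 higher in the dark zone (0.43 and 0.34), and its 2 others were at -0.04 and -0.07. Hnrnpdl had 2 of 7 called, both higher in the light zone.

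**Figure D3:**
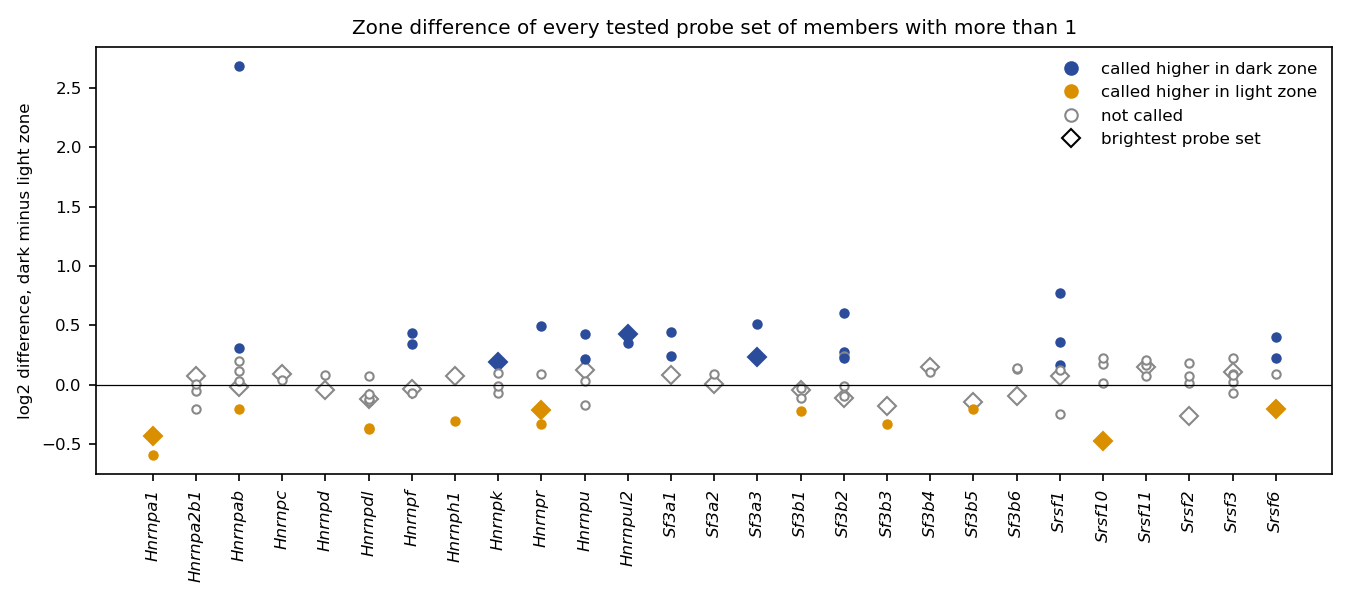
Zone difference of every tested probe set of the 27 members with more than 1. The y axis is the log2 difference, dark zone minus light zone; diamonds are the brightest probe set, circles the others, filled where called in the fit over all probe sets (blue dark zone, orange light zone). The point at 2.68 is the Hnrnpab probe set, and Hnrnpab, Hnrnpr and Srsf6 have both colours; Sf3b3 is unfilled because its brightest probe set, called in the gene fit, was at an adjusted p of 0.056 here.

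Pairs of paralogs or close relatives were compared by the log2 ratio of the pair within each array, which shows unequal change only. Of 17 pairs, listed with earlier results of these data known, 13 had both genes above the filter, and p-values were adjusted over these 13. None passed: 6 pairs reached the smallest p that an exact two-sided permutation test of 4 against 4 arrays can give (p = 0.0286), which is 0.062 after adjustment. With that floor no pair could pass unless most of the 13 reached it. The lack of a pass therefore says little of any single pair. In these 6 the ratio did not overlap between the zones. The change of Hnrnpa1 was lower than that of Hnrnpa2b1 by 0.51 (SE 0.08), and that of Hnrnpr lower than that of Syncrip by 0.49 (SE 0.09). Srsf5 exceeded Srsf6 by 0.44 (SE 0.09), and Srsf1 exceeded Srsf9 by 0.22 (SE 0.06). All pairs rest on brightest probe sets, and the ratio was not computed for other probe sets. For Srsf6 and Hnrnpr, probe sets were called in both directions. Dimmer probe sets of Hnrnpu gave 0.43 and 0.22, both called higher in the dark zone, and 0.03 and -0.17, not called. The first is close to the 0.42 of Hnrnpul2. Tested probe sets ran from -0.25 to 0.77 for Srsf1, and from -0.21 to 0.08 with none called for Hnrnpa2b1. Hnrnpul2 exceeded Hnrnpu by 0.30 and Hnrnpul1 by 0.30 (SE 0.07 each). The pair Hnrnpu and Hnrnpul1 differed by -0.00 (SE 0.10), and Srsf4 and Srsf6 by 0.06 (SE 0.05).

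The rest of the splicing machinery was read from 10 lists, chosen with earlier results of these data known. Of 137 tested genes, 29 were up in dark zone cells and 13 in light zone cells (30.7% called), and the median difference was 0.02. The shares over all tested genes, 19.1% and 24.8% (43.9% called), are the background for each list. The shares differed between lists, and the difference between lists was not tested. In the list of the PRP19 complex and catalytic step factors, 9 of 22 were up in dark zone cells and 2 in light zone cells, with a median of 0.18. Ppil1, a prolyl isomerase of the activated spliceosome, read 9.25, 9.01, 8.96 and 9.11 in light zone arrays and 9.87, 10.10, 10.03 and 9.69 in dark zone arrays. The zones were far apart, by 0.84 (SE 0.09, limma adjusted p = 2.1e-05). Prpf18, a second step factor, was higher in the dark zone by 0.82 (SE 0.08).

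Among U2 snRNP and branch site partners, 6 of 17 were up in dark zone cells and 1 in light zone cells. Ddx46, a helicase that loads SF3B1 onto the branch site, was at 0.41 and Cherp at -0.31; Cherp was at 0.10 in another probe set. Of 8 U1 snRNP and 5′ splice site genes, 2 were higher in the dark zone. Snrnp70, the core U1 protein, was at 0.68, but a probe set of a different type gave -0.51 and was also called (limma adjusted p = 0.0026), so its direction rests on the probe set. Snrpc was at 0.22. Of 12 Sm and LSm genes, 3 were higher in the dark zone, led by Snrpd3 (0.35), and 1 was higher in the light zone, Snrpf (-0.22). Of 17 tri-snRNP genes, 1 was up in dark zone cells and 3 in light zone cells, among them Eftud2 (-0.30) and Ddx23 (-0.30). Eftud2, a GTPase of the U5 particle, was at 0.04 in a probe set of another type.

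Of 7 hnRNP proteins with other symbols, 2 were higher in the dark zone: Ptbp1 (0.40), the polypyrimidine tract binding repressor, and Syncrip (0.27). Ptbp1 was at 0.090 and not called in its brightest probe set free of a suffix. Of 30 other splicing regulators, 4 were up in dark zone cells and 1 in light zone cells. The leading genes were Tardbp (0.31) and Ptbp3 (0.25), and 25 did not pass. Tardbp was at 0.17 and not called in its brightest probe set free of a suffix. Among 9 kinases of SR proteins, 1 was up in dark zone cells and 2 in light zone cells. Srpk3 read 11.78, 11.73, 11.75 and 11.75 in light zone arrays and 11.22, 10.96, 11.08 and 11.14 in dark zone arrays, with no overlap and a difference of -0.66 (SE 0.07, limma adjusted p = 7.2e-06). Dyrk1a, a nuclear kinase with wider roles in cell cycle exit, was at 0.50.

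Of 6 genes for the nuclear import and arginine methylation of SR and hnRNP proteins, 2 were up in light zone cells and 1 in dark zone cells. Prmt5, which methylates Sm proteins symmetrically, was at -0.53, and the coactivator methyltransferase Carm1 at -0.37. Of 9 exon junction and nonsense-mediated decay genes, 1 was higher in the light zone, Upf2 (-0.20), and the median was -0.16. The calls of Snrpf and Ddx23 were lost without light zone replicate 2. With averaged probe sets Ddx23 (-0.084), Upf2 (-0.038), Snrpd3 (0.11) and Snrpc (0.11) were not called.

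**Figure D4:**
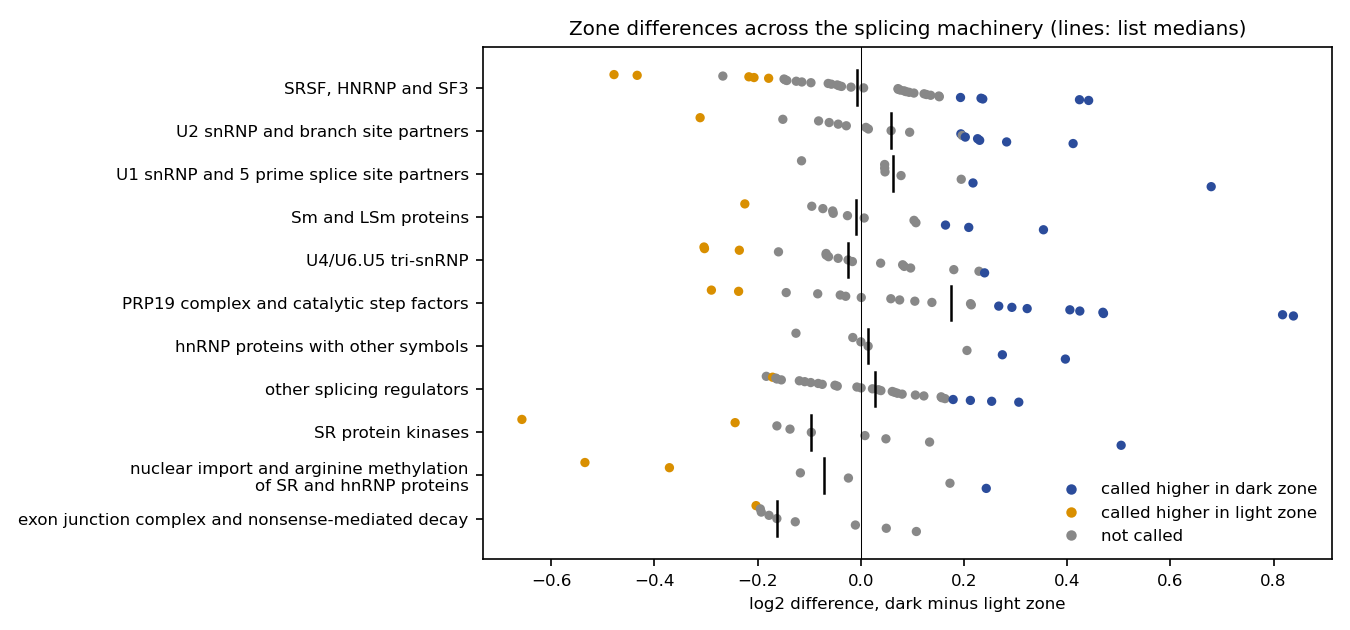
Zone differences of the SRSF, HNRNP and SF3 members and of 10 other splicing lists. The x axis is the log2 difference, dark zone minus light zone; each point is 1 tested gene (blue called higher in the dark zone, orange in the light zone, grey not called) and black lines are list medians. In the brightest probe sets shown, the members centre on -0.01 and stay between -0.48 and 0.44. The PRP19 list has a median of 0.18 and reaches 0.84.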

How the data were processed

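Each array was deposited as 1 column of linear intensity, normalized by RMA (version not given) per the submitters' processing notes. RMA brings array distributions close together, which hides shifts in overall RNA content and compresses differences of dim genes; array medians were 27.3 to 28.1. The log2 was taken with no pseudocount. Of 45037 probe sets, 34945 had 1 gene symbol. A gene was tested if the mean of its brightest probe set reached the 50th percentile of all probe sets (27.8, or 4.80 on the log2 scale). Dark zone was compared with light zone by limma 3.58.1 in R 4.3.3 (lmFit, eBayes), two-sided, over 10547 genes. The code was tested on simulated data. Figures used matplotlib 3.10.9 (Python 3.11.15).

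Samples were grouped by title. The members, lists and pairs were chosen with earlier results of these data known. Every member may be named; given by array are the 6 largest differences in each direction among called members without overlap between zones, and members whose probe sets were called in opposite directions. All SF3 subunits are given with their difference, and from each other list the 2 largest called differences. Array values of Srsf2, Sf3b1 and the dim members, and Phf5a, were added after their values were seen. Alternatives varied the filter, probe set, normalization, log scale, variance model, array weights, replicate number, threshold and arrays; the fit of each probe set on its own was added after seeing the data.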

Additional observations from a re-analysis of the deposited data

Results flagged for a closer look

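Of 132 groups of 4 arrays checked (members, other genes named and the probe sets called against each other), 6 held an array far from the other 3, where chance alone gives about 1 in 20. Dark zone replicate 1 read 12.82 for Hnrnpa2b1, against 13.03 to 13.04 in the other dark zone arrays, and 13.02 for Srsf1, against 13.29 to 13.34. Without that array the differences were 0.13 (limma adjusted p = 0.086) and 0.15 (limma adjusted p = 0.058), neither called. Dark zone replicate 4 read 11.86 for Srsf2, against 11.97 to 11.98. Light zone replicate 2 read 10.59 for Tardbp, against 10.88 to 10.89, and 6.55 for the Hnrnpab probe set 1459880_at, against 6.50 to 6.51. Light zone replicate 4 read 9.38 for the Srsf6 probe set 1416720_at, against 9.54 to 9.55.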

How the results depend on the processing

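The counts of members higher in the dark and light zone (5 and 5) were 10 and 4 with averaged probe sets, 9 and 8 with trend and robust variances, and 3 and 2 at an adjusted p under 0.01. At that threshold the other splicing genes gave 17 and 6 in place of 29 and 13. Of the 10 members called, 6 were called with averaged probe sets and 10 with trend and robust variances. Leaving out 1 array gave 5 to 6 and 4 to 5 members. The replicate numbers were not taken as pairs, since 1 of the 4 same-numbered correlations of deviations was only 0.060 (the others 0.13 to 0.24), though 7 of 8 arrays correlated best with their own number. With the replicate number as a block, 5 and 4 members passed (Sf3b3 did not), and all tested genes past the threshold numbered 4787, against 4629 without the block.

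Signs turned in these cases. With averaged probe sets the values were -0.045 for Hnrnpa2b1, 0.45 for Hnrnpab, -0.019 for Hnrnpc, 0.17 for Hnrnpf, -0.12 for Hnrnph1, 0.16 for Sf3b2, 0.013 for Sf3b6 and 0.13 for Srsf6, and the difference of Srsf2 was 0.000757. With the brightest probe set free of a suffix they were 0.083 for Hnrnpd, 0.34 for Hnrnpf, 0.092 for Hnrnpr, 0.074 for Srsf2, 0.10 for Cherp, 0.042 for Eftud2 and -0.51 for Snrnp70. Leaving out 1 array gave -0.13 to 0.074 for Hnrnph2 and -0.11 to 0.017 for Hnrnph3, both positive without light zone replicate 2 alone. It gave -0.020 to 0.030 for Sf3a2, which was at -0.018 with median centring. The cause was not tested. Over the 10 called members, 168 alternatives kept the call, 19 lost it and 2 turned the sign. No paralog pair passed in any alternative, but with the block or the stricter threshold the exact test could not have passed. With an array left out, as in the main test, a pass needed most pairs at the smallest p.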

Other observations

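Some arrays were the extreme of their zone more often among members than among all tested genes. In any gene some array of each zone must be highest and another lowest, so the shares are given against all tested genes. Light zone replicate 2 was the highest or lowest array of its zone in 25 of the 36 tested members (69.4%, against 55.4% of all tested genes). It was highest in 13 and lowest in 12, and over all tested genes in 25.1% and 30.3%. Dark zone replicate 1 was an extreme in 26 (72.2%, against 56.1%) and light zone replicate 1 in 23 (63.9%, against 51.7%). Light zone replicates 3 and 4 were extremes in 12 each (33.3%, against 42.1% and 50.8%). For dark zone replicates 2, 3 and 4 the shares were 38.9%, 44.4% and 44.4%, against 46.1%, 46.2% and 51.5%. Srsf10, Srsf2, Srsf6, Hnrnpa1 and Hnrnpr read highest in light zone replicate 2, while Srsf5, Sf3a3, Hnrnpk and Hnrnpul2 read lowest there. These are counts over genes of the same arrays and were not tested.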
